A study of Mus musculus with 18 samples.

Results

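The TCDD response of the liver was compared between mice lacking the aryl hydrocarbon receptor (AHR) in hepatocytes and mice with the receptor in every cell. The measure is a difference of responses: TCDD against vehicle in dHep livers, minus TCDD against vehicle in WT livers. It rests on 12 of the 18 libraries, 3 in each of 4 groups by their titles, and all 14835 genes with enough counts were tested. The groups are dHep mice (labelled AhRΔHep, Ahr deleted in hepatocytes) given TCDD, dHep mice given vehicle, WT mice (labelled AhRfl/fl, so floxed but intact at Ahr) given TCDD, and WT mice given vehicle. All were female C57BL/6 mice dosed by gavage every 4 days, with 100 µg/kg of TCDD or with peanut oil alone, and livers were taken at day 92. The other 6 libraries come from dHSC mice (AhRΔHSC, Ahr deleted in hepatic stellate cells) and enter the same fit. The labels give no Cre driver, no deleted exon and no age, and each library is 1 mouse. RNA came from whole liver, where fewer cells of a type and less RNA per cell cannot be told apart. All levels below are in CPM, a gene's count scaled to a common library size. Libraries are listed in order of replicate: 4, 10 and 16 for dHep TCDD, 3, 9 and 15 for dHep vehicle, 2, 8 and 14 for WT TCDD, and 1, 7 and 13 for WT vehicle.

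AHR is a transcription factor that waits in the cytoplasm bound to chaperones. When a ligand such as the dioxin TCDD binds, AHR moves to the nucleus, pairs with ARNT and binds DNA elements with the core GCGTG, among them those before Cyp1a1. TCDD is broken down so slowly that the receptor stays active for a long time. In rodents this is known to bring fatty liver, inflammation and scarring, with loss of many enzymes of the mature hepatocyte. A difference of responses of 0 means that TCDD changed a gene alike in both genotypes. A negative one means that TCDD moved the gene further up, or less far down, in WT livers, and a positive one the reverse.

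Total counts of the 12 libraries ran from 15183143 to 27240877. Of the 6 dHep libraries, vehicle replicates 9 and 15 and TCDD replicate 16 stood apart, with scores of 64.1 to 95.9 on the first principal component (38.3% of the variance) against at most 36.8 for the other 9 libraries. In these 3 libraries 2.20% to 3.77% of counts lay outside protein-coding genes, against at most 1.76% in the other 9. A pair of dHSC libraries, vehicle replicate 17 and TCDD replicate 18, also stood apart, and results without all 5 are given beside those with them. In dHep vehicle replicate 9 the bile duct keratin Krt19 stood at 69.8 CPM, against 1.15 to 7.55 CPM in the other 11 libraries. In WT vehicle replicate 1, skeletal muscle genes summed to 1965 CPM, against at most 4.94 CPM elsewhere. The hepatocyte marker Alb averaged 70094 and 84619 CPM in dHep livers with TCDD and vehicle, and 51819 and 85737 CPM in WT livers with TCDD and vehicle. The stellate marker Reln averaged 48.2, 46.2, 75.9 and 45.4 CPM in the same order. Another stellate marker, Lrat, has all its exon bases under another gene and held too few counts to be tested. Ahr itself (ENSMUSG00000019256, chromosome 12, 35497974 to 35535038) had 94.9, 60.8 and 28.99 CPM with TCDD and 56.8, 28.1 and 29.1 CPM with vehicle in dHep livers. WT livers had 56.6, 53.4 and 44.6 CPM with TCDD and 32.7, 51.8 and 69.97 CPM with vehicle. The 4 groups overlapped, with a difference of responses of 0.69 ± 0.61 (SE; adjusted p = 0.819). These reads cover the gene as a whole, also the exons that a deletion would leave in place, so they check no label.

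The response to TCDD differed between the genotypes for 127 of 14835 genes (0.856%), by edgeR's quasi-likelihood test at an adjusted p under 0.05. At an unadjusted p under 0.05, the same test gave 1251 of the 14835 genes. TCDD called 798 genes in WT livers (5.38%) and 10 in dHep livers (0.0674%). The WT count was 445 and 454 without WT TCDD replicate 2 or 14, and 463 without WT vehicle replicate 7 and likewise without replicate 13. The dHep count was 0, 2 and 1 without dHep TCDD replicate 4, 10 or 16, and 3 without dHep vehicle replicate 15. It was 4 without WT TCDD replicate 14 and 17 without WT vehicle replicate 1, in fits where all libraries share 1 estimate of the spread. For the 52 genes with a higher response in dHep (0.351%), the fitted WT response was negative in all 52, with a median log2 response of -0.05 in dHep livers and -3.59 in WT livers. For the 75 genes with a lower response in dHep (0.506%), the medians were -0.20 in dHep and 3.64 in WT, where 72 had a positive fitted response. In dHep livers the fitted TCDD response stayed under 1 on the log2 scale, in either direction, for 43 of the 52 and 49 of the 75. The median dHep response over all genes tested was -0.008. The share of all genes under 1 was not counted, so these counts do not set the called genes apart. The WT response made up a median of 102% of the difference in the 52 genes and 95.3% in the 75. Over all genes tested, the fitted WT response was negative in 7592 and positive in 7242. The called genes were picked on the dHep response minus the WT response. That picking favours such signs, medians and shares of the WT response.

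**Figure D1:**
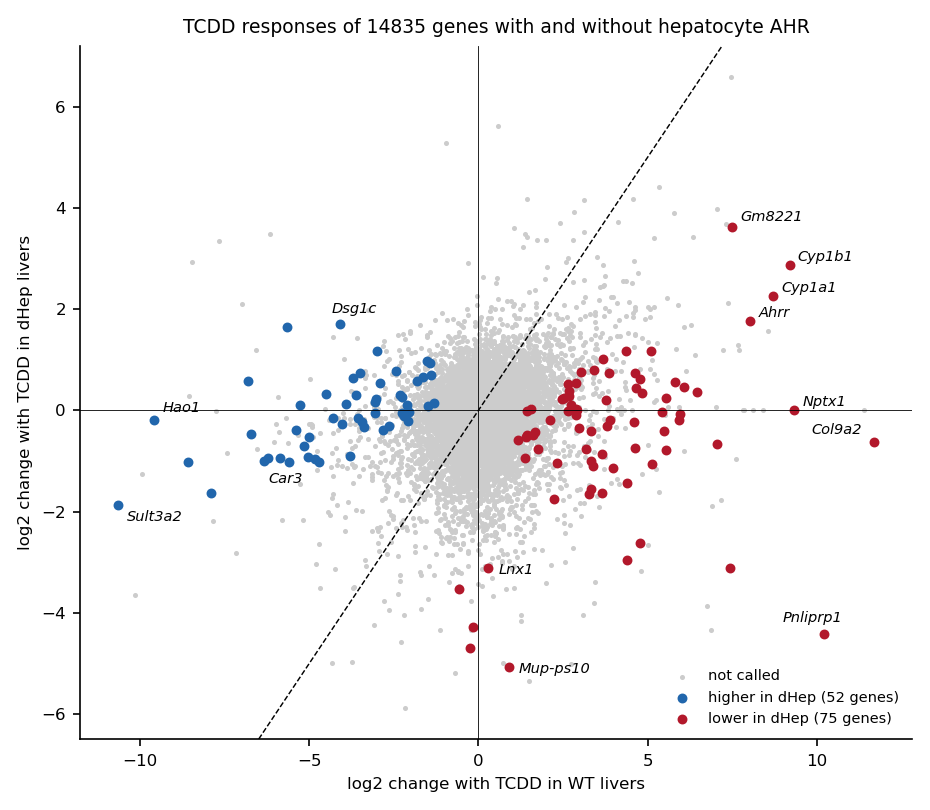
Each point is a gene, with its log2 response to TCDD in dHep livers and in WT livers, and the genes whose responses differed are coloured by direction. The 52 and 75 called genes spread along the WT axis, with median WT responses of -3.59 and 3.64, while most lie within 1 log2 unit of 0 in dHep. They were picked on the difference of these responses, which favours such a spread.

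The same difference can be read as dHep against WT in TCDD livers, where 288 genes were called (1.94%; 159 without WT TCDD replicate 14 and 164 without replicate 2, 168 and 173 without dHep TCDD replicate 4 or 10, and 189 without replicate 16), minus dHep against WT in vehicle livers, where edgeR's quasi-likelihood test called 0 (1025 at an unadjusted p under 0.05, 3 by DESeq2). Vehicle livers accounted for a median of 10.8% of the difference in the 52 genes and 19.6% in the 75. They supplied over 25% of it in 11 of the 52 and 29 of the 75. In vehicle livers, 65 of the 75 had a higher fitted level in dHep than in WT, against 7229 of all 14835 genes tested. The difference of responses subtracts this vehicle comparison, so picking genes with a lower response favours such levels. Of those 75, dHep vehicle replicate 9 held the highest dHep vehicle level in 53 (70.7%), against 35.9% of all genes tested, and the part of that library in these results was not tested beyond leaving it out. Without it 51 genes were called. The count was 66, 75 and 65 without WT TCDD replicate 2, 8 or 14, 80 and 55 without WT vehicle replicate 7 or 13, and 67 and 65 without dHep TCDD replicate 4 or 10. Over the 12 fits that each leave out 1 library the count ran from 51 to 130, and 42 of the 127 genes (19 higher, 23 lower) kept their call in every one. Without the 5 libraries that stood apart, which leaves dHep vehicle with 1 mouse, 19 genes were called, 18 of them among the 127.

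Of 14 tested enzymes and feedback genes under AHR control, 7 had a lower response to TCDD in dHep than in WT livers and 0 a higher one, where 0.506% of all genes had a lower and 0.351% a higher one. The list's median difference of responses was -2.03, against -0.02 over all genes tested. The median response was 0.85 in dHep and 2.61 in WT, with 0 members called in dHep and 11 called up in WT (3.43% of all genes were). The list was drawn up with these data's results known, so its count is a description.

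Cyp1a1, a cytochrome that oxidises many AHR ligands (ENSMUSG00000032315, chromosome 9, 57687928 to 57703824), had 304, 283 and 334 CPM with TCDD and 78.9, 86.9 and 25.9 CPM with vehicle in dHep livers. In WT livers Cyp1a1 had 5873, 8328 and 5089.6 CPM with TCDD and 33.2, 5.04 and 8.04 CPM with vehicle. Every TCDD library of dHep lay above every vehicle library of dHep, and far below every TCDD library of WT, while the vehicle groups overlapped. Its difference of responses was -6.44 ± 1.02 (SE; adjusted p = 0.00582), made of a response of 2.26 ± 0.69 (SE; adjusted p = 0.473) in dHep and 8.70 ± 0.92 (SE; adjusted p = 4.56e-05) in WT. Cyp1b1, a cytochrome of the same family found mostly outside hepatocytes (ENSMUSG00000024087, chromosome 17, 79701537 to 79715061), had 101, 89.6 and 71.9 CPM with TCDD and 10.7, 21.2 and 3.92 CPM with vehicle in dHep livers. WT livers gave 1396, 1037 and 1224 CPM with TCDD and 2.52, 1.01 and 2.70 CPM with vehicle. None of its 4 groups overlapped another, and dHep vehicle livers stood above WT vehicle livers. Its difference was -6.33 ± 0.82 (SE; adjusted p = 0.00156), with a response in dHep of 2.87 ± 0.57 (SE; adjusted p = 0.0909). Cyp1a2, the family member made constitutively by central hepatocytes, had 284, 512 and 447 CPM with TCDD and 256, 344 and 473 CPM with vehicle in dHep livers. For Cyp1a2, WT livers had 14202, 20113 and 13876 CPM with TCDD and 1841, 1465 and 260.3 CPM with vehicle. In dHep the TCDD and vehicle libraries overlapped at levels within or just below the range of WT vehicle livers, and the difference was -3.54 ± 0.75 (SE; adjusted p = 0.0353).

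The repressor of AHR, Ahrr, which AHR itself induces, had 6.15, 4.33 and 4.42 CPM with TCDD and 1.54, 2.14 and 0.679 CPM with vehicle in dHep livers. WT livers had 61.2, 63.04 and 60.6 CPM with TCDD and 0.115, 0.056 and 0.517 CPM with vehicle. All 4 groups were apart, in the order WT TCDD, dHep TCDD, dHep vehicle and WT vehicle, and the difference was -6.28 ± 0.76 (SE; adjusted p = 0.000932). Tiparp, an ADP-ribosyltransferase that also restrains AHR, had 14.2, 18.2 and 19.6 CPM with TCDD and 8.50, 10.1 and 7.17 CPM with vehicle in dHep livers. In WT livers Tiparp had 132, 70.1 and 176 CPM with TCDD and 13.2, 6.84 and 9.47 CPM with vehicle. Its dHep TCDD libraries were above the dHep vehicle libraries, but below the lowest WT TCDD library, and the difference was -2.67 ± 0.48 (SE; adjusted p = 0.0131). Nqo1, a quinone reductase under AHR and NRF2, had 21.3, 26.4 and 23.2 CPM with TCDD and 22.8, 15.6 and 20.002 CPM with vehicle in dHep livers. WT livers gave 131, 148 and 98.6 CPM with TCDD and 15.1, 24.8 and 19.46 CPM with vehicle. It overlapped between treatments in dHep and separated them in WT, with a difference of -2.39 ± 0.45 (SE; adjusted p = 0.017). Gsta1, a glutathione transferase, had 6.66, 6.15 and 5.38 CPM with TCDD and 0.899, 3.69 and 3.55 CPM with vehicle in dHep livers. For Gsta1, WT livers had 20.1, 38.3 and 25.5 CPM with TCDD and 0.573, 2.19 and 1.26 CPM with vehicle. TCDD libraries were apart from vehicle libraries in both genotypes, with the smaller step in dHep, and the difference was -3.20 ± 0.68 (SE; adjusted p = 0.035).

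The other 7 members did not pass the test. Among them, the differences were -1.67 for Cyp2s1, -1.59 for Slc46a3, -1.45 for Gstm3, -1.23 for Nfe2l2 and -1.10 for Ugdh, and 6.25 ± 2.64 (SE; adjusted p = 0.519) for Aldh3a1. Leaving out 1 library ended the call of Tiparp in 1 (adjusted p up to 0.0521, without WT vehicle replicate 13), of Nqo1 in 4 (adjusted p up to 0.0621, without WT vehicle replicate 13), of Cyp1a2 in 9 (adjusted p up to 0.125, without dHep TCDD replicate 4) and of Gsta1 in 10 (adjusted p up to 0.116, without dHep vehicle replicate 9) of the 12 fits. Cyp1a1, Cyp1b1 and Ahrr stayed called in all 12. Without the 5 libraries that stood apart, the difference was -6.81 (adjusted p = 0.0577) for Cyp1a1, -6.05 (adjusted p = 0.0014) for Cyp1b1, -6.27 (adjusted p = 0.00453) for Ahrr and -2.61 (adjusted p = 0.0296) for Nqo1. It was -3.12 (adjusted p = 0.346) for Cyp1a2, -2.75 (adjusted p = 0.114) for Tiparp and -1.55 (adjusted p = 0.75) for Gsta1, which lost their calls.

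**Figure D2:**
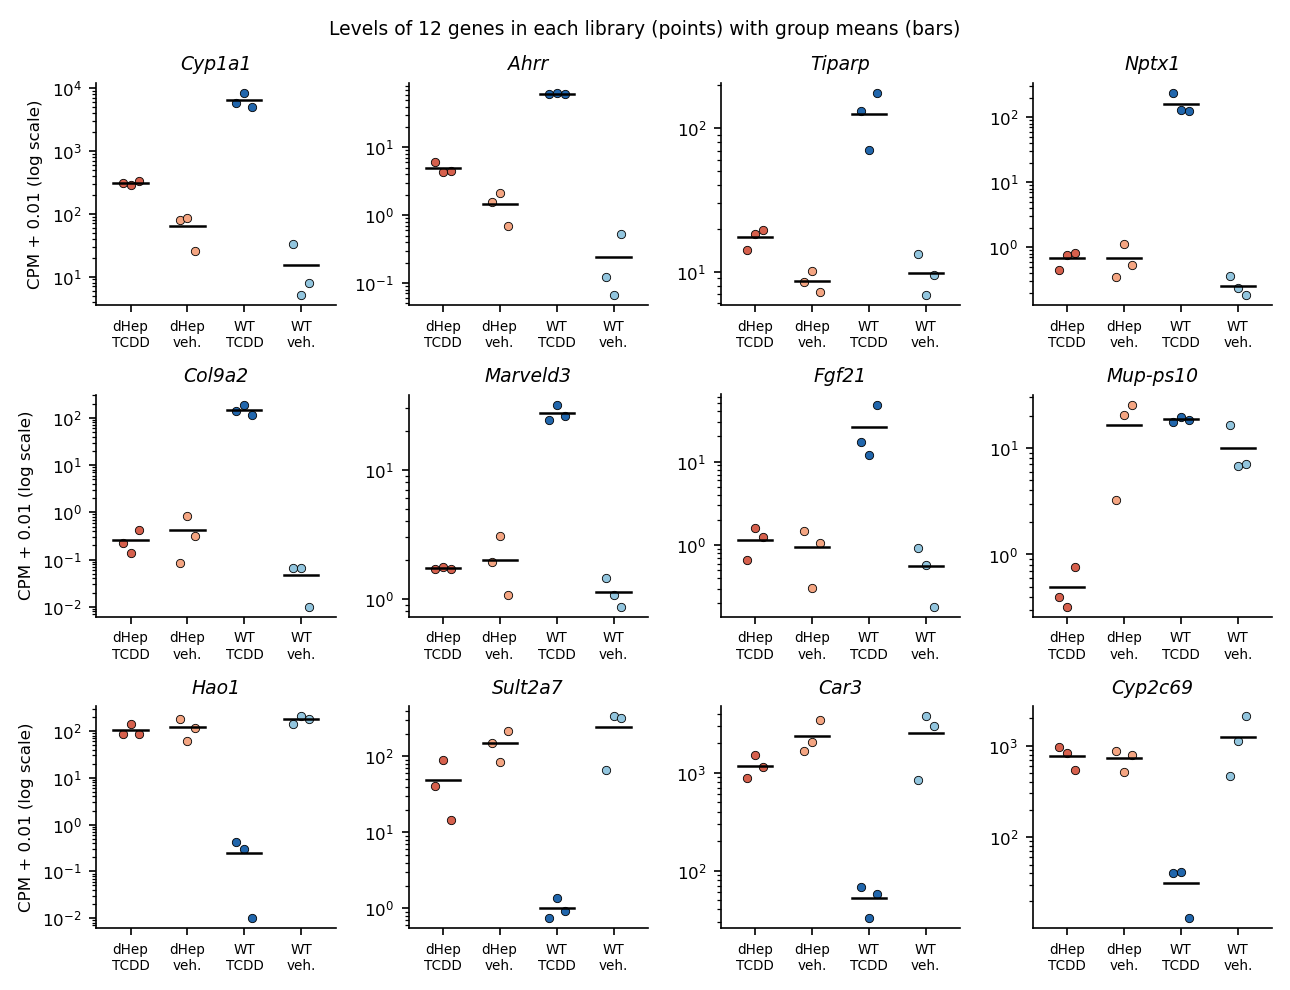
CPM in each library on a log axis (0.01 added) for 12 genes, with points for libraries and bars for group means, in the order dHep TCDD, dHep vehicle, WT TCDD and WT vehicle. In most panels the WT TCDD libraries stand alone, high for Cyp1a1 (5089.6 to 8328 CPM) and low for Hao1 (0 to 0.412 CPM), while in Mup-ps10 the dHep TCDD libraries do.

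The promoters of the genes of this comparison were searched for the AHR core. GCGTG on either strand lay in 25 of the 49 matched promoters of genes lower in dHep (51%) and in 8 of 33 of those higher (24.2%), against 48.7% of the 10871 tested genes with a promoter and 32.5% of all 27025. The longer TNGCGTG, which holds GCGTG, lay in 12.2% of the promoters of genes lower in dHep, 3.03% of those higher, 7.65% of tested genes and 5.12% of all. Each promoter runs 250 bases before to 50 after the gene's start in RefSeq (GRCm38.p6), and each gene is counted once. The sequences below show 4 genes with lower responses in dHep, and Hao1, which had the highest difference among the 127 called genes. They were not drawn by a rule and do not stand for the groups. Pnliprp1 and Col9a2, with the lowest differences, held 0 matches, as did Ism2, Trpv4, Cyp1a2 and Nqo1. Capitals mark GCGTG, written CACGC where it lies on the other strand. The windows are chr9:57697363-57697662 (plus strand) for Cyp1a1, chr17:79715012-79715311 (minus) for Cyp1b1, chr13:74292282-74292581 (minus) for Ahrr, chr9:95845230-95845529 (minus) for Pls1 and chr2:134554303-134554602 (minus) for Hao1.
Cyp1a1: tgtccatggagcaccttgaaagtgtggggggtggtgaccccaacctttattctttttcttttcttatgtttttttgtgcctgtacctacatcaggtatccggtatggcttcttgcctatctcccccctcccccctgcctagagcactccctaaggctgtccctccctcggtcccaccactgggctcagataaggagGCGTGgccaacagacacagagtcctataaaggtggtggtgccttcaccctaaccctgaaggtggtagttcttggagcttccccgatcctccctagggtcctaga
Cyp1b1: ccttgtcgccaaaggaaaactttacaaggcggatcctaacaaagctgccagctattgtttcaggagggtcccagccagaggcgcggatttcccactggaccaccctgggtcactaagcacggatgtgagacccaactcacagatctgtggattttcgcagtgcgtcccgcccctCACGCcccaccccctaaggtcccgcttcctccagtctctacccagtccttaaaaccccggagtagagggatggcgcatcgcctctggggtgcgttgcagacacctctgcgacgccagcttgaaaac
Ahrr: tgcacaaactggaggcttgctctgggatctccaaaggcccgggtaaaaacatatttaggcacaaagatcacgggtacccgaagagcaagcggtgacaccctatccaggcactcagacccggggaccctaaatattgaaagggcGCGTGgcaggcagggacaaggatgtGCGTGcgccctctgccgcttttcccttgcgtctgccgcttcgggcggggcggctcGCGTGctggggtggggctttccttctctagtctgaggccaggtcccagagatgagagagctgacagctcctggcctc
Pls1: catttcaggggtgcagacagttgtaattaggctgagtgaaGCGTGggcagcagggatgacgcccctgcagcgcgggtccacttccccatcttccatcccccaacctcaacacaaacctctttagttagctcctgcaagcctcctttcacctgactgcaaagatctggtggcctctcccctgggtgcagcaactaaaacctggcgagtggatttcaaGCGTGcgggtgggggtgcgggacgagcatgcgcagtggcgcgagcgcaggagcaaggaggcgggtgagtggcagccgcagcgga
Hao1: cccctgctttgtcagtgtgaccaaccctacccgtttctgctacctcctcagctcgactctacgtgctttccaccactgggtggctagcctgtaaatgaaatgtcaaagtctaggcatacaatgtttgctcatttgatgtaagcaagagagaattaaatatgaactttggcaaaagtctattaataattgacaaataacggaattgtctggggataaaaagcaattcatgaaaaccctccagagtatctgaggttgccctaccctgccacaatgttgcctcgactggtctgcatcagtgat
Cyp1a1 and Cyp1b1 hold 1 match each, Ahrr 3 (1 of them within TNGCGTG), Pls1 2 and Hao1 0. A match is a run of letters and not a shown binding site, and this window leaves out distal elements.

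Most of the largest negative differences belonged to genes that WT livers hardly expressed without TCDD. Ranking by log2 difference favours such low levels. A mean of 1 CPM over the 12 libraries could also be reached through WT TCDD livers alone. So levels high only in WT TCDD livers follow in part from the picking. Genes for secreted and matrix proteins are described first. Nptx1, a secreted pentraxin known from neurons, had 0.433, 0.753 and 0.817 CPM with TCDD and 0.337, 1.13 and 0.528 CPM with vehicle in dHep livers. WT livers had 237, 129 and 124 CPM with TCDD and 0.344, 0.224 and 0.172 CPM with vehicle. In dHep livers the TCDD and vehicle libraries overlapped and none passed 1.13 CPM, while the lowest WT TCDD library had 124 CPM. Its difference was -9.32 ± 0.96 (SE; adjusted p = 0.00012), and -8.57 (adjusted p = 0.00453) without the 5 libraries that stood apart. Col9a2, which codes for part of collagen IX of cartilage, had 0.216, 0.126 and 0.408 CPM with TCDD and 0.0749, 0.833 and 0.302 CPM with vehicle in dHep livers. In WT livers Col9a2 had 138, 191 and 118 CPM with TCDD and 0.0573, 0.056 and 0 CPM with vehicle. WT TCDD livers stood apart from the other 3 groups, with 9216 counts against 2 in WT vehicle livers, a ratio of 3820 (95% exact counting interval 1057 to 31550). Its fitted difference of -12.32 ± 1.10 (SE; adjusted p = 8.3e-05) and that SE depend on the prior count. The same holds for other genes with so few counts in a group. Pnliprp1, a relative of pancreatic lipase, had 0, 0 and 0 CPM with TCDD and 0.112, 0.238 and 0.0755 CPM with vehicle in dHep livers. WT livers gave 26.9, 43.97 and 21.9 CPM with TCDD and 0, 0.056 and 0 CPM with vehicle. It was counted 1890 times in WT TCDD livers against 1 in WT vehicle livers, a ratio of 1567 (280.9 to 61920), whereas dHep livers gave 0 counts with TCDD and 8 with vehicle, at least 2.52-fold lower with TCDD.

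Col4a3, a basement membrane collagen, had 0.0866, 0.377 and 0.136 CPM with TCDD and 0.449, 2.97 and 1.28 CPM with vehicle in dHep livers. For Col4a3, WT livers had 10.6, 0.683 and 11.6 CPM with TCDD and 0.573, 0.336 and 0.172 CPM with vehicle. Other genes cover 50% of its exon bases. The WT TCDD library of replicate 8 lay within the range of dHep vehicle livers, and the difference was -7.35 ± 1.42 (SE; adjusted p = 0.021). Ism2, a secreted isthmin, had 0.476, 0.753 and 1.02 CPM with TCDD and 0.974, 2.26 and 1.43 CPM with vehicle in dHep livers. WT livers had 32.7, 19.99 and 19.9 CPM with TCDD and 0.516, 1.12 and 0.402 CPM with vehicle. Every WT TCDD library was far above any other. Its difference was -6.20 ± 0.62 (SE; adjusted p = 0.000109), and -5.83 (adjusted p = 0.00935) without the 5 libraries. The hormone Fgf21, which the liver releases in fasting and stress, had 0.649, 1.57 and 1.225 CPM with TCDD and 1.46, 0.297 and 1.06 CPM with vehicle in dHep livers. In WT livers Fgf21 had 17.4, 11.8 and 48.2 CPM with TCDD and 0.917, 0.56 and 0.172 CPM with vehicle. The dHep groups overlapped each other and WT vehicle, and the difference was -5.28 ± 1.09 (SE; adjusted p = 0.0309). It was the 1 member of 12 tested stress hormone genes that was called (0.506% of all genes were called lower). Insl6, a relaxin family member best known from testis, had 0.303, 0.0628 and 0.204 CPM with TCDD and 0.374, 0.178 and 0 CPM with vehicle in dHep livers. WT livers gave 11.5, 17.1 and 11.8 CPM with TCDD and 0.115, 0.392 and 0.115 CPM with vehicle. For Insl6, WT TCDD libraries lay above all others and the dHep groups overlapped, and the difference was -6.04 ± 1.06 (SE; adjusted p = 0.0122).

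Cytoskeletal, membrane, scaffold and other genes are described next, and each rose in WT livers. Pls1, a plastin that bundles the actin of microvilli, had 2.73, 1.63 and 2.38 CPM with TCDD and 1.46, 3.09 and 0.679 CPM with vehicle in dHep livers. For Pls1, WT livers had 46.02, 28.1 and 32.5 CPM with TCDD and 0.229, 0.616 and 0.344 CPM with vehicle. WT TCDD libraries were apart from all others, and dHep livers of both treatments lay above WT vehicle livers, with a difference of -6.10 ± 0.76 (SE; adjusted p = 0.00105). St14, the membrane protease matriptase, had 2.16, 4.46 and 7.96 CPM with TCDD and 1.498, 12.02 and 3.02 CPM with vehicle in dHep livers. WT livers had 60.8, 66.7 and 44.7 CPM with TCDD and 0.917, 1.12 and 0.746 CPM with vehicle. St14 in every WT TCDD library was above the other 3 groups, the dHep groups overlapped, and the difference was -6.12 ± 0.93 (SE; adjusted p = 0.00483). Its dHep vehicle replicate 9 was higher than any dHep TCDD library. Ap1m2, the epithelial subunit of a sorting adaptor, had 0.995, 0.942 and 0.885 CPM with TCDD and 0.337, 2.91 and 0.528 CPM with vehicle in dHep livers. In WT livers Ap1m2 had 24.4, 29.4 and 21.5 CPM with TCDD and 0.974, 0.448 and 0.23 CPM with vehicle. Ap1m2 levels in WT TCDD livers lay above every other, and the dHep groups overlapped, and the difference was -5.89 (adjusted p = 0.00965). The calcium channel Trpv4 had 1.30, 1.13 and 1.84 CPM with TCDD and 0.861, 2.62 and 0.906 CPM with vehicle in dHep livers. WT livers gave 41.2, 31.7 and 47.9 CPM with TCDD and 1.49, 0.504 and 0.804 CPM with vehicle. Trpv4 lay above all 9 other libraries in each WT TCDD library, while the dHep groups overlapped, and the difference was -5.46 ± 0.74 (SE; adjusted p = 0.00189).

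Gipc2, a PDZ scaffold protein, had 0.649, 0.879 and 1.43 CPM with TCDD and 0.262, 3.81 and 0.604 CPM with vehicle in dHep livers. For Gipc2, WT livers had 39.2, 54.6 and 31.1 CPM with TCDD and 0.516, 0.168 and 0.23 CPM with vehicle. Each WT TCDD library was above all 9 others, while the dHep groups overlapped, and the difference was -7.73 ± 1.09 (SE; adjusted p = 0.0026). Without the 5 libraries it was -5.57 (adjusted p = 0.0296). Pdzrn3, a ubiquitin ligase with PDZ domains, had 1.99, 1.26 and 2.65 CPM with TCDD and 2.097, 29.9 and 4.53 CPM with vehicle in dHep livers. WT livers had 40.7, 53.5 and 36.96 CPM with TCDD and 2.06, 0.953 and 1.72 CPM with vehicle. Its difference was -7.41 ± 1.15 (SE; adjusted p = 0.00513), or -5.14 (adjusted p = 0.00436) without the 5, and other genes cover 84.7% of the exon bases of Pdzrn3 and 24.1% of those of Gipc2. In both genes dHep vehicle replicate 9 was the highest of the 6 dHep libraries. The fatty acid binding protein Fabp12 had 0.606, 0.502 and 1.02 CPM with TCDD and 0.412, 1.61 and 1.74 CPM with vehicle in dHep livers. In WT livers Fabp12 had 18.4, 23.6 and 30.3 CPM with TCDD and 0.401, 0.448 and 0.689 CPM with vehicle. For Fabp12, WT TCDD libraries lay above all others and the dHep groups overlapped, and the difference was -6.33 ± 0.84 (SE; adjusted p = 0.00158). Fam83a had 1.77, 1.44 and 0.68 CPM with TCDD and 1.16, 1.19 and 0.453 CPM with vehicle in dHep livers. WT livers gave 38.4, 23.7 and 15.999 CPM with TCDD and 0.459, 0.448 and 0.23 CPM with vehicle. Fam83a in every WT TCDD library was above the other 3 groups, the dHep groups overlapped, and the difference was -5.61 ± 0.87 (SE; adjusted p = 0.00523). Nipal2 had 0.433, 2.20 and 2.04 CPM with TCDD and 0.786, 4.76 and 2.26 CPM with vehicle in dHep livers. For Nipal2, WT livers had 13.4, 17.9 and 14.02 CPM with TCDD and 0.86, 0.616 and 0.344 CPM with vehicle. Nipal2 levels in WT TCDD livers lay above every other, and the dHep groups overlapped, and the difference was -5.37 ± 1.03 (SE; adjusted p = 0.0194).

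Some genes of cell junctions are named here after their values were seen. Marveld3, a tight junction protein, had 1.69, 1.76 and 1.70 CPM with TCDD and 1.91, 3.03 and 1.06 CPM with vehicle in dHep livers. WT livers had 24.2, 31.8 and 25.7 CPM with TCDD and 1.43, 1.06 and 0.861 CPM with vehicle. The WT TCDD libraries were far above the rest, and the difference was -4.82 ± 0.47 (SE; adjusted p = 8.3e-05). Spint1, an inhibitor of matriptase, had a difference of -3.92 ± 0.88 (SE; adjusted p = 0.0482), the desmosome protein Pkp3 -2.98 ± 0.57 (SE; adjusted p = 0.0197), and the polarity protein Patj -1.94 ± 0.36 (SE; adjusted p = 0.0179). The call of Spint1 ended with RLE size factors (adjusted p = 0.0553), with the 12 WT and dHep libraries alone (0.0676) and with a block of 3 sets of mice (0.0786). Vehicle livers supplied 57.2% of its difference, with 1.35, 9.87 and 2.11 CPM in dHep and 1.38, 0.729 and 0.689 CPM in WT. In TCDD livers, dHep against WT was not called for Spint1 by edgeR (adjusted p = 0.251). Of 15 genes of bile duct cells and ductular reactions tested, 0 were called, with a median difference of -1.18 and median responses of 0.06 in dHep and 1.22 in WT. Summed over that list, dHep livers had 351.2, 553.9 and 501.3 CPM with TCDD and 342.9, 634.2 and 458.4 CPM with vehicle, against 609, 585.2 and 546.9 CPM with TCDD and 330.3, 304.8 and 340.3 CPM with vehicle in WT livers. These sums separated TCDD from vehicle in WT livers and overlapped in dHep livers, and their part in the genes above was not tested.

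Leaving out 1 library ended the call of Insl6 in 1 (adjusted p up to 0.141, without dHep vehicle replicate 3), Col4a3 in 7 (adjusted p up to 0.0834, without dHep TCDD replicate 4), Fgf21 in 9 (adjusted p up to 0.0986, without WT TCDD replicate 14), Nipal2 in 3 (adjusted p up to 0.0717, without dHep vehicle replicate 9), Spint1 in 10 (adjusted p up to 0.153, without dHep vehicle replicate 9), Pkp3 in 5 (adjusted p up to 0.0683, without dHep TCDD replicate 10) and Patj in 4 (adjusted p up to 0.0683, without dHep TCDD replicate 10) of the 12 fits. Col9a2, Nptx1, Ism2, Pls1, St14, Trpv4, Marveld3, Gipc2, Pdzrn3, Fabp12, Fam83a and Ap1m2 kept theirs in all 12. Without the 5 libraries that stood apart, Pls1 (-5.87), St14 (-4.82), Trpv4 (-4.93), Fam83a (-5.61), Marveld3 (-4.75) and Insl6 (-6.88) stayed called, as did Nptx1, Ism2, Gipc2 and Pdzrn3. Others lost their calls. Col9a2 gave -10.5 (adjusted p = 0.0564), Pnliprp1 -14.5 (adjusted p = 0.134), Ap1m2 -3.99 (adjusted p = 0.114), Col4a3 -5.42 (adjusted p = 0.404), Fgf21 -5.96 (adjusted p = 0.0635) and Fabp12 -5.11 (adjusted p = 0.0523). Nipal2 gave -3.93 (adjusted p = 0.307), Spint1 -2.34 (adjusted p = 0.128), Pkp3 -2.55 (adjusted p = 0.137) and Patj -1.72 (adjusted p = 0.111).

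**Figure D3:**
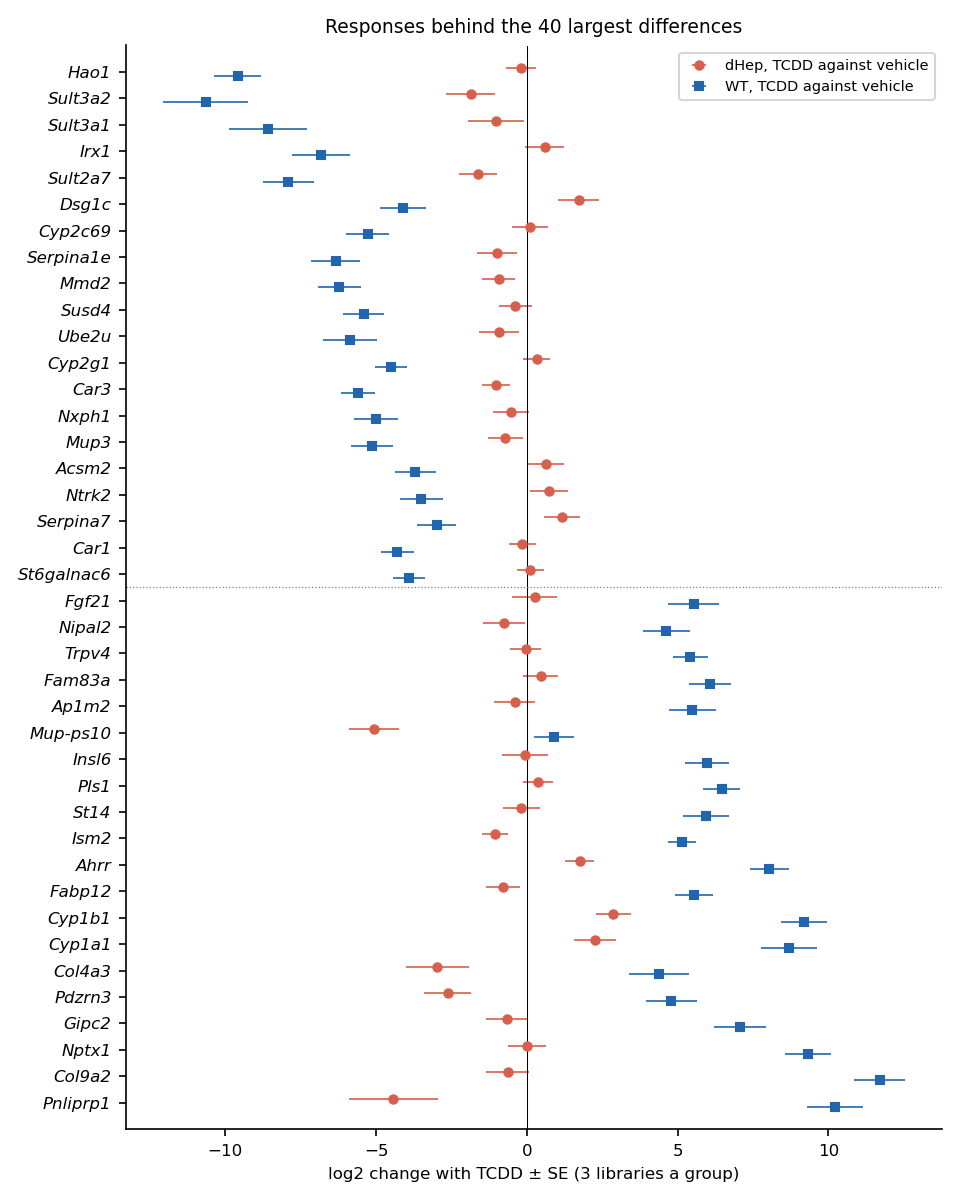
Log2 response to TCDD (± SE) in dHep and WT livers for 40 genes, the 20 with the highest and the 20 with the lowest difference of responses. WT responses run far from 0 for nearly all, from -10.64 for Sult3a2 to 11.70 for Col9a2, and Mup-ps10 is the 1 gene whose response is larger in dHep.

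Among the 52 called genes with a higher response in dHep, Hao1 had the largest difference. Hao1, the peroxisomal oxidase that turns glycolate into glyoxylate (ENSMUSG00000027261, chromosome 2, 134497361 to 134554368), had 88.1, 140.1 and 86.5 CPM with TCDD and 182, 60.6 and 117 CPM with vehicle in dHep livers. In WT livers Hao1 had 0.412, 0.285 and 0 CPM with TCDD and 144, 208 and 184 CPM with vehicle. The WT TCDD libraries reached at most 0.412 CPM, and every other library had at least 60.6 CPM. The difference was 9.39 ± 0.90 (SE; adjusted p = 8.3e-05), with a dHep response of -0.19 ± 0.51 (SE; adjusted p = 0.961), and 8.92 (adjusted p = 0.00775) without the 5 libraries. It was the 1 called of 15 tested genes of glyoxylate metabolism and peroxisomal oxidases (0.351% of all genes were called higher). Their median difference was 0.66.

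Sulfotransferases, which conjugate steroids, bile acids and drugs with sulfate, gave 5 called higher and 0 lower of 16 tested (0.351% and 0.506% of all genes were), with a median difference of 1.15. Their median response was -0.09 in dHep and -1.33 in WT, where 7 were called down (1.95% of all genes were). Sult2a7 had 41.2, 89.8 and 14.6 CPM with TCDD and 150.2, 85.6 and 214 CPM with vehicle in dHep livers. WT livers gave 0.733, 1.37 and 0.91 CPM with TCDD and 67.1, 339.6 and 316 CPM with vehicle. WT TCDD libraries lay below all others, and the dHep groups overlapped by TCDD replicate 10. Its difference was 6.28 ± 0.97 (SE; adjusted p = 0.00513), with a dHep response of -1.63 ± 0.64 (SE; adjusted p = 0.646). Sult3a1 had 115, 157 and 66.002 CPM with TCDD and 309, 139 and 236 CPM with vehicle in dHep livers. For Sult3a1, WT livers had 1.37, 0.911 and 0.703 CPM with TCDD and 113, 414 and 619 CPM with vehicle. Sult3a1 lay below all 9 other libraries in each WT TCDD library, while the dHep groups overlapped, and the difference was 7.56 ± 1.48 (SE; adjusted p = 0.0224). Sult3a2 was counted once in WT TCDD livers against 1896 times in WT vehicle livers, a vehicle to TCDD ratio of 2287 (410 to 90390), and its fitted difference was 8.78 ± 1.65 (SE; adjusted p = 0.0179). Sult2a8 had 266, 606 and 427 CPM with TCDD and 632, 938 and 970.4 CPM with vehicle in dHep livers. WT livers had 23.9, 36.2 and 23.7 CPM with TCDD and 459, 1021 and 918 CPM with vehicle. Each WT TCDD library was below all 9 others, while the dHep groups did not overlap, and the difference was 3.87 ± 0.53 (SE; adjusted p = 0.00191). Sult1a1, which sulfates phenols, had 574, 709 and 510.5 CPM with TCDD and 437, 296 and 463 CPM with vehicle in dHep livers. In WT livers Sult1a1 had 157, 202 and 131 CPM with TCDD and 439.8, 721 and 555 CPM with vehicle. For Sult1a1, WT TCDD libraries lay below all others and the dHep groups did not overlap, and the difference was 2.39 ± 0.43 (SE; adjusted p = 0.0144). The Sult2a and Sult3a genes have near-identical copies, so reads may be split between them.

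Cyp2c69 had 956, 832 and 547 CPM with TCDD and 877, 509 and 795 CPM with vehicle in dHep livers. WT livers gave 40.9, 41.004 and 12.9 CPM with TCDD and 461, 1122 and 2105 CPM with vehicle. Cyp2c69 in every WT TCDD library was below the other 3 groups, the dHep groups overlapped, and the difference was 5.38 ± 0.89 (SE; adjusted p = 0.00845). Cyp2g1 had 6.19, 14.3 and 11.1 CPM with TCDD and 4.68, 9.04 and 11.5 CPM with vehicle in dHep livers. For Cyp2g1, WT livers had 0.778, 0.626 and 0.703 CPM with TCDD and 10.9, 22.02 and 15.6 CPM with vehicle. Cyp2g1 levels in WT TCDD livers lay below every other, and the dHep groups overlapped, and the difference was 4.83 ± 0.69 (SE; adjusted p = 0.00314). They are the 2 called of 30 CYP2 cytochromes tested, whose median difference was 0.60 (0.351% of all genes were called higher). Cyp2c69 belongs to a cluster of close copies, so its counts are uncertain. Of 8 CYP3A cytochromes, 0 were called by edgeR, 2 by DESeq2 and 4 at an unadjusted p under 0.05. Their median difference was 1.85, and 5 were called down in WT (1.95% of all genes were). Among them, Cyp3a16 had 75.9, 14.2 and 1.29 CPM with TCDD and 1.69, 33.7 and 40.2 CPM with vehicle in dHep livers. WT livers had 0.55, 0.228 and 0.165 CPM with TCDD and 175, 2.13 and 188 CPM with vehicle. Cyp3a16 lay below all 9 other libraries in each WT TCDD library, while the dHep groups overlapped, and the difference was 8.84 ± 2.26 (SE; adjusted p = 0.103). Cyp17a1, a steroid hydroxylase, had 116, 79.3 and 79.7 CPM with TCDD and 117, 106 and 118 CPM with vehicle in dHep livers. In WT livers Cyp17a1 had 26.1, 29.1 and 22.6 CPM with TCDD and 98.4, 176 and 209.7 CPM with vehicle. Each WT TCDD library was below all 9 others, while the dHep groups overlapped, and the difference was 2.33 ± 0.48 (SE; adjusted p = 0.0309). Fmo2, a flavin monooxygenase, had 54.9, 95.2 and 39.1 CPM with TCDD and 46.5, 37.9 and 35.5 CPM with vehicle in dHep livers. WT livers gave 32.7, 31.4 and 29.02 CPM with TCDD and 155, 60.4 and 71.9 CPM with vehicle. For Fmo2, WT TCDD libraries lay below all others and the dHep groups overlapped, and the difference was 2.28 ± 0.51 (SE; adjusted p = 0.0461). Vehicle livers, where dHep stood below WT, supplied 55.3% of that difference. In TCDD livers, dHep against WT was not called for Fmo2 by edgeR (adjusted p = 0.24). Its highest WT vehicle level was in replicate 1, the library with high skeletal muscle genes. Cyp17a1 and Fmo2 belong, with Sult3a1, to the 3 called of 16 female-biased liver genes (0.351% of all genes were called higher). The median difference of that list was 1.22. Of 15 male-biased genes, 2 were called higher, Serpina1e and Susd4, beside the same 0.351%, and the list's median was 0.19.

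Carbonic anhydrases, which interconvert carbon dioxide and bicarbonate, gave 4 called higher of 7 tested (0.351% of all genes were), with a median difference of 2.03 and median responses of -0.15 in dHep and -2.06 in WT. Car3, abundant in liver and muscle, had 889, 1506 and 1132 CPM with TCDD and 1653, 2051 and 3427 CPM with vehicle in dHep livers. For Car3, WT livers had 68.4, 32.6 and 57.6 CPM with TCDD and 848, 3781 and 3031 CPM with vehicle. WT TCDD libraries were below all others, with no overlap, and the difference was 4.58 ± 0.68 (SE; adjusted p = 0.00398). Car1 had 5.63, 11.5 and 6.396 CPM with TCDD and 5.88, 10.8 and 9.43 CPM with vehicle in dHep livers. WT livers had 0.687, 0.171 and 0.372 CPM with TCDD and 6.02, 12.72 and 6.26 CPM with vehicle. Car1 in every WT TCDD library was below the other 3 groups, the dHep groups overlapped, and the difference was 4.15 ± 0.70 (SE; adjusted p = 0.00936). Car14, a membrane form, had 21.8, 16.9 and 16.7 CPM with TCDD and 25.99, 15.1 and 28.2 CPM with vehicle in dHep livers. In WT livers Car14 had 1.92, 3.30 and 3.80 CPM with TCDD and 13.01, 46.4 and 35.02 CPM with vehicle. Car14 levels in WT TCDD livers lay below every other, and the dHep groups overlapped, and the difference was 3.06 ± 0.58 (SE; adjusted p = 0.019). The catalytically inactive Car8 had 118, 191 and 118 CPM with TCDD and 189, 119.6 and 128 CPM with vehicle in dHep livers. WT livers gave 44.4, 40.9 and 38.3 CPM with TCDD and 158, 184 and 174 CPM with vehicle. Car8 lay below all 9 other libraries in each WT TCDD library, while the dHep groups overlapped, and the difference was 2.03 ± 0.44 (SE; adjusted p = 0.0394). The other 3 gave -2.25 (Car2), 1.46 (Car5b) and -0.72 (Car13). Car3 is also expressed in skeletal muscle, whose genes were high in WT vehicle replicate 1. That library had the lowest Car3 level of the WT vehicle group (848 CPM), and its part was not tested beyond leaving it out. Car3 kept its call in all 12 fits that leave out 1 library.

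Secreted and regulatory genes of hepatocytes were also among the 52. Serpina1e, an alpha-1 antitrypsin of a cluster of close copies, had 29.4, 57.4 and 27.9 CPM with TCDD and 92.6, 53.4 and 83.6 CPM with vehicle in dHep livers. For Serpina1e, WT livers had 2.34, 5.41 and 4.67 CPM with TCDD and 64.4, 651 and 291 CPM with vehicle. Each WT TCDD library was below all 9 others, while the dHep groups overlapped, and the difference was 5.34 ± 0.99 (SE; adjusted p = 0.0159). Serpina7, the thyroxine-binding globulin, had 222, 43.2 and 121 CPM with TCDD and 72.4, 31.2 and 68.5 CPM with vehicle in dHep livers. WT livers had 6.87, 3.76 and 3.22 CPM with TCDD and 34.9, 48.4 and 27.4 CPM with vehicle. WT TCDD libraries lay below all others, and dHep TCDD replicates 4 and 16 above the dHep vehicle libraries. The difference was 4.16 ± 0.86 (SE; adjusted p = 0.0309). The urinary pheromone carrier Mup3 had 1230.5, 1864 and 2572 CPM with TCDD and 3574, 1581 and 4137 CPM with vehicle in dHep livers. In WT livers Mup3 had 62.2, 173 and 92.8 CPM with TCDD and 2213, 4153 and 5262 CPM with vehicle. For Mup3, WT TCDD libraries lay below all others and the dHep groups overlapped, and the difference was 4.43 ± 0.86 (SE; adjusted p = 0.0215). It too has close copies. Fads1, which desaturates fatty acids, had 667, 799.96 and 461 CPM with TCDD and 617, 375 and 613 CPM with vehicle in dHep livers. WT livers gave 191, 139 and 114 CPM with TCDD and 678, 782 and 673 CPM with vehicle. Fads1 in every WT TCDD library was below the other 3 groups, the dHep groups overlapped, and the difference was 2.53 ± 0.52 (SE; adjusted p = 0.0303). It was the 1 called of 21 tested genes of fatty acid and triglyceride synthesis (median 0.96), where 0.351% of all genes were called higher.

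Irx1, a homeobox factor, had 1.43, 2.32 and 1.56 CPM with TCDD and 1.46, 0.773 and 1.28 CPM with vehicle in dHep livers. For Irx1, WT livers had 0, 0.057 and 0 CPM with TCDD and 3.44, 2.52 and 1.84 CPM with vehicle. WT TCDD livers held 1 count and WT vehicle livers 137, a vehicle to TCDD ratio of 165 (29.2 to 6575). The fitted difference was 7.40 ± 1.17 (SE; adjusted p = 0.00582). The receptor Ntrk2 had 30.03, 20.5 and 38.9 CPM with TCDD and 32.95, 13.1 and 7.32 CPM with vehicle in dHep livers. WT livers had 1.24, 0.456 and 0.992 CPM with TCDD and 13.1, 11.9 and 6.08 CPM with vehicle. Ntrk2 levels in WT TCDD livers lay below every other, and the dHep groups overlapped, and the difference was 4.24 ± 0.94 (SE; adjusted p = 0.0449). Nxph1, a secreted neurexophilin, had 1.82, 13.2 and 7.62 CPM with TCDD and 10.97, 12.8 and 8.604 CPM with vehicle in dHep livers. In WT livers Nxph1 had 0.275, 0.342 and 0.331 CPM with TCDD and 14.2, 8.91 and 8.09 CPM with vehicle. Nxph1 lay below all 9 other libraries in each WT TCDD library, while the dHep groups overlapped, and the difference was 4.49 ± 0.91 (SE; adjusted p = 0.027). Susd4, a complement inhibitor, had 10.1, 10.5 and 3.33 CPM with TCDD and 9.32, 11.1 and 10.9 CPM with vehicle in dHep livers. WT livers gave 0.641, 0.057 and 0.207 CPM with TCDD and 5.33, 18.2 and 16.5 CPM with vehicle. Each WT TCDD library was below all 9 others, while the dHep groups overlapped, and the difference was 5.03 ± 0.84 (SE; adjusted p = 0.00932). Slc16a10, a transporter of aromatic amino acids, had 194, 234 and 134 CPM with TCDD and 128, 112 and 107 CPM with vehicle in dHep livers. For Slc16a10, WT livers had 81.6, 64.9 and 73.8 CPM with TCDD and 209.97, 176 and 191 CPM with vehicle. For Slc16a10, WT TCDD libraries lay below all others and the dHep groups did not overlap, and the difference was 2.09 ± 0.38 (SE; adjusted p = 0.0144). It was the 1 called of 25 solute transporters (0.351% of all genes were called higher). Slc22a3, an organic cation transporter of central hepatocytes, went the other way. It had 12.6, 6.47 and 3.95 CPM with TCDD and 10.5, 5.77 and 6.87 CPM with vehicle in dHep livers. WT livers had 54.5, 43.6 and 37.95 CPM with TCDD and 3.96, 9.08 and 8.61 CPM with vehicle. Slc22a3 in every WT TCDD library was above the other 3 groups, the dHep groups overlapped, and the difference was -2.66 ± 0.58 (SE; adjusted p = 0.0398).

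The remaining genes of the 20 largest were Dsg1c (5.81), Mmd2 (5.29), Ube2u (4.93), Acsm2 (4.33) and St6galnac6 (4.02). Of the genes that fell in WT, leaving out 1 library ended the call of Sult3a2 in 5 (adjusted p up to 0.0712, without WT TCDD replicate 14), Sult3a1 in 8 (adjusted p up to 0.0933, without dHep vehicle replicate 9), Sult1a1 in 3 (adjusted p up to 0.054, without WT TCDD replicate 14), Serpina1e in 3 (adjusted p up to 0.0651, without dHep vehicle replicate 9), Serpina7 in 10 (adjusted p up to 0.112, without WT TCDD replicate 14), Mup3 in 6 (adjusted p up to 0.0771, without dHep vehicle replicate 9), Car14 in 5 (adjusted p up to 0.0689, without dHep vehicle replicate 9), Car8 in 11 (adjusted p up to 0.148, without dHep TCDD replicate 10), Fads1 in 9 (adjusted p up to 0.11, without WT TCDD replicate 14), Cyp17a1 in 10 (adjusted p up to 0.108, without WT TCDD replicate 14) and Fmo2 in 10 (adjusted p up to 0.161, without dHep TCDD replicate 10) of the 12 fits. The same held for Nxph1 in 8 (adjusted p up to 0.0876, without WT TCDD replicate 2), Ntrk2 in 11 (adjusted p up to 0.153, without dHep vehicle replicate 9), Slc16a10 in 2 (adjusted p up to 0.0514, without dHep TCDD replicate 10), Ube2u in 11 (adjusted p up to 0.152, without WT TCDD replicate 2) and Acsm2 in 9 (adjusted p up to 0.102, without dHep vehicle replicate 9), and on the other side for Slc22a3 in 11 (adjusted p up to 0.146, without dHep TCDD replicate 10). Without the 5 libraries, Sult2a7 gave 6.71 (adjusted p = 0.0591), Car3 5.12 (adjusted p = 0.0847), Cyp2c69 5.3 (adjusted p = 0.134) and Cyp2g1 5.63 (adjusted p = 0.0296). Among the 52, the 3 genes still called were Hao1, Cyp2g1 and Gas1, the last named after its values were seen.

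For 5 of the 75 genes with a lower response in dHep, the fitted response to TCDD was larger in size in dHep livers than in WT livers. All 5 are among the 6 genes that fell in dHep (0.0404%), where 4 rose (0.027%). Mup-ps10, a pseudogene of the urinary protein cluster, had 0.389, 0.314 and 0.748 CPM with TCDD and 3.26, 20.3 and 25.4 CPM with vehicle in dHep livers. In WT livers Mup-ps10 had 17.6, 19.6 and 18.4 CPM with TCDD and 16.2, 6.72 and 7.003 CPM with vehicle. The dHep TCDD libraries lay below the dHep vehicle libraries and all WT libraries, and the response was -5.08 ± 0.82 (SE; adjusted p = 0.0259) in dHep and 0.89 ± 0.66 (SE; adjusted p = 0.615) in WT. Its difference was -5.97 ± 1.05 (SE; adjusted p = 0.0123). The other 4 are named after their values were seen. Their log2 responses in dHep were -4.70 ± 0.65 (SE; adjusted p = 0.00943) for Mup-ps12, -4.28 ± 0.60 (SE; adjusted p = 0.00943) for Mup-ps14, -3.12 ± 0.54 (SE; adjusted p = 0.0471) for the ubiquitin ligase Lnx1 and -3.52 ± 0.50 (SE; adjusted p = 0.00943) for Gm13775.

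In these 4 the WT response lay between -0.58 and 0.27. Vehicle livers, where dHep stood above WT, accounted for 42.1% of the difference in Lnx1 and 47.9% in Gm13775. In dHep vehicle livers Lnx1 had 6.18, 13.98 and 16.2 CPM, Gm13775 97.8, 258 and 187 CPM and Mup-ps14 6.18, 26.5 and 24.5 CPM. The lowest of each came from replicate 3, and replicates 9 and 15 are libraries that stood apart. Leaving out 1 library ended the call of Mup-ps12 in 3 (adjusted p up to 0.0574, without WT vehicle replicate 13), Mup-ps14 in 3 (adjusted p up to 0.0523, without dHep TCDD replicate 4), Lnx1 in 9 (adjusted p up to 0.112, without WT TCDD replicate 14) and Gm13775 in 9 (adjusted p up to 0.142, without dHep TCDD replicate 4) of the 12 fits, and other genes cover 29.2% of the exon bases of Lnx1 and 34.9% of those of Gm13775. Reads of the Mup pseudogenes cannot be told from those of close copies. The protein-coding Mup17 also fell in dHep. It had 28.95, 37.2 and 20.7 CPM with TCDD and 608, 1259.9 and 3220.1 CPM with vehicle in dHep livers. WT livers gave 131, 525 and 341 CPM with TCDD and 1512, 1132 and 1829 CPM with vehicle. Its difference of responses was -3.71 ± 1.11 (SE; adjusted p = 0.209), which did not pass. Of 19 major urinary protein genes tested, 1 was called higher and 0 lower (0.351% and 0.506% of all genes were). Their median responses were -3.03 in dHep and -2.30 in WT. Without the 5 libraries, the difference was -4.07 (adjusted p = 0.0724) for Mup-ps10, -2.43 (adjusted p = 0.0784) for Mup-ps12, -2.54 (adjusted p = 0.125) for Mup-ps14, -2.89 (adjusted p = 0.191) for Lnx1 and -1.81 (adjusted p = 0.495) for Gm13775, and no gene was called in the dHep response. That response held 0 calls without dHep TCDD replicate 4 and 17 without WT vehicle replicate 1.

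The other genes with TCDD responses in dHep were Apol7c, Mmp13, Adamdec1 and Gm8221, which rose. Apol7c, an apolipoprotein L, had 64.4, 28.6 and 40.2 CPM with TCDD and 2.32, 7.32 and 0.755 CPM with vehicle in dHep livers. For Apol7c, WT livers had 58.9, 59.1 and 66.8 CPM with TCDD and 0.401, 0.112 and 0.631 CPM with vehicle. TCDD libraries were above vehicle libraries in both genotypes and overlapped each other, and the difference of responses was -3.64 ± 0.85 (SE; adjusted p = 0.0602). Mmp13, a collagenase, had 9.39, 6.34 and 11.02 CPM with TCDD and 0.524, 1.49 and 0.453 CPM with vehicle in dHep livers. WT livers had 23.2, 17.7 and 25.5 CPM with TCDD and 0.172, 0.168 and 0.459 CPM with vehicle. Both genotypes separated the treatments, at higher TCDD levels in WT, with a difference of -2.91 ± 0.68 (SE; adjusted p = 0.061) and a dHep response of 3.43 ± 0.48 (SE; adjusted p = 0.00943).

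The series title names myofibroblasts, which deposit collagen in a scarring liver. None of the 17 contractile myofibroblast genes tested was called, by edgeR's quasi-likelihood test or by DESeq2, and 2 had an unadjusted p under 0.05. Their median difference was 0.48, with median responses of -0.27 in dHep and -0.39 in WT. Of all 14835 genes tested, 1251 had an unadjusted p under 0.05 for the difference of responses in edgeR's quasi-likelihood test. The smooth muscle actin Acta2 had 13.8, 3.26 and 28.4 CPM with TCDD and 1.42, 83.8 and 6.79 CPM with vehicle in dHep livers. In WT livers Acta2 had 3.98, 4.39 and 9.26 CPM with TCDD and 31.6, 7.01 and 3.27 CPM with vehicle. Its highest level was dHep vehicle replicate 9, the groups overlapped, and the difference was 0.23 ± 1.52 (SE; adjusted p = 0.973). Among WT livers Acta2 was highest in vehicle replicate 1 (31.6 CPM), the library with high skeletal muscle genes. The part of that library in the medians of this list was not tested. None of the 19 fibrillar collagens and collagen-making genes was called by either tool, and 1 had an unadjusted p under 0.05, with a median difference of -0.44 and median responses of 0.49 in dHep and 0.97 in WT.

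Col1a1, the main chain of scar collagen, had 27.4, 25.4 and 24.8 CPM with TCDD and 5.28, 13.9 and 8.08 CPM with vehicle in dHep livers. WT livers gave 84.03, 40.3 and 90.4 CPM with TCDD and 27.1, 5.49 and 6.54 CPM with vehicle. TCDD libraries lay above vehicle libraries in both genotypes. The difference was -0.95 ± 0.73 (SE; adjusted p = 0.795), with responses of 1.51 ± 0.53 (SE; adjusted p = 0.567) in dHep and 2.46 ± 0.54 (SE; adjusted p = 0.0128) in WT. Col3a1 had 64.9, 62.4 and 89.8 CPM with TCDD and 22.2, 77.1 and 39.1 CPM with vehicle in dHep livers. For Col3a1, WT livers had 172, 88.4 and 176 CPM with TCDD and 75.03, 34.97 and 34.5 CPM with vehicle. TCDD and vehicle libraries overlapped in dHep and did not overlap in WT, and the difference was -0.94 ± 0.59 (SE; adjusted p = 0.733). Of 36 other matrix genes, 2 were called lower, Col9a2 and Col4a3 (0.506% of all genes were), with a median of -0.26. Of 19 genes of matrix turnover, 0 were called by edgeR, 3 by DESeq2 and 9 at an unadjusted p under 0.05, with a median of -1.61 and median responses of 1.05 in dHep and 1.23 in WT. These p-values do not show that the genotypes respond alike. 

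No gene of the neutrophil, B and plasma cell or scar macrophage lists was called in the difference of responses by edgeR. Over all 14835 genes tested, 1251 had an unadjusted p under 0.05 in that difference. Of 14 neutrophil genes, 0 were called by edgeR, 2 by DESeq2 and 8 at an unadjusted p under 0.05, with a median difference of -2.96. Their median responses were 1.27 in dHep and 4.27 in WT, where 10 were called up (3.43% of all genes were). Their summed level was 23.72, 23.98 and 52.19 CPM with TCDD and 10.49, 32.59 and 17.21 CPM with vehicle in dHep livers, against 110 to 135.7 CPM with TCDD and 5.38 to 10.56 CPM with vehicle in WT livers. The dHep groups overlapped and the WT groups did not. S100a9, a neutrophil alarmin, had 3.98, 5.78 and 12.1 CPM with TCDD and 1.98, 7.85 and 2.64 CPM with vehicle in dHep livers. WT livers had 27.1, 40.4 and 39.4 CPM with TCDD and 0.803, 0.448 and 1.89 CPM with vehicle. S100a9 lay above all 9 other libraries in each WT TCDD library, while the dHep groups overlapped, and the difference was -4.27 ± 1.21 (SE; adjusted p = 0.168). Cxcl1, which draws neutrophils, had 1.86, 3.64 and 6.26 CPM with TCDD and 2.88, 10.5 and 10.2 CPM with vehicle in dHep livers. In WT livers Cxcl1 had 9.34, 30.01 and 22.3 CPM with TCDD and 1.43, 3.47 and 1.15 CPM with vehicle. In dHep, TCDD and vehicle overlapped, with vehicle replicates 9 and 15 the highest. Its difference was -4.35 ± 0.94 (SE; adjusted p = 0.0385). It was the 1 called of 16 chemokines (median -1.20), where 0.506% of all genes were called lower. Leaving out 1 library ended the call of Cxcl1 in 8 (adjusted p up to 0.123, without dHep TCDD replicate 10) of the 12 fits, and without the 5 libraries the difference was -3.43 (adjusted p = 0.315).

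B and plasma cell genes gave a median difference of -2.34 over 12 tested, with 0 called by edgeR, 3 by DESeq2 and 8 at an unadjusted p under 0.05, and medians of -0.06 in dHep and 2.46 in WT. Their summed level did not follow these medians. It was 520.4, 290.4 and 287.1 CPM with TCDD and 475.1, 236.2 and 355.7 CPM with vehicle in dHep livers, against 306.4, 211.7 and 290.7 CPM with TCDD and 220.3, 712.5 and 554.6 CPM with vehicle in WT livers. TCDD and vehicle overlapped in both genotypes. Sdc1, a plasma cell marker that hepatocytes also express, made up 75.6% to 93.2% of the sum in dHep libraries and 49.5% to 98% in WT libraries. The other 11 genes, set apart after values were seen, summed to 35.3, 42.9 and 57.8 CPM with TCDD and 33.7, 57.5 and 41.2 CPM with vehicle in dHep livers, against 155, 77.2 and 91 CPM with TCDD and 39, 14.2 and 16.4 CPM with vehicle in WT livers. Of 17 genes of scar-associated macrophages and monocytes, 0 were called by edgeR, 2 by DESeq2 and 10 at an unadjusted p under 0.05, with a median of -1.28 and medians of 0.73 in dHep and 1.90 in WT. Itgax, an integrin of myeloid cells, gave -2.16 ± 0.58 (SE; adjusted p = 0.129). Cd14, a receptor for bacterial lipopolysaccharide named after its values were seen, was called. It had 4.54, 5.71 and 7.08 CPM with TCDD and 4.01, 5.59 and 3.70 CPM with vehicle in dHep livers. WT livers gave 16.2, 25.6 and 24.9 CPM with TCDD and 4.70, 2.02 and 3.73 CPM with vehicle. Each WT TCDD library was above all 9 others, while the dHep groups overlapped, and the difference was -2.29 ± 0.48 (SE; adjusted p = 0.0309). Leaving out 1 library ended the call of Cd14 in 7 (adjusted p up to 0.103, without dHep vehicle replicate 9) of the 12 fits, and without the 5 libraries that stood apart the difference was -2.32 (adjusted p = 0.193). Of all 875 list genes tested, counted once each, 19 were called higher and 12 lower (0.351% and 0.506% of all genes were).

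**Figure D4:**
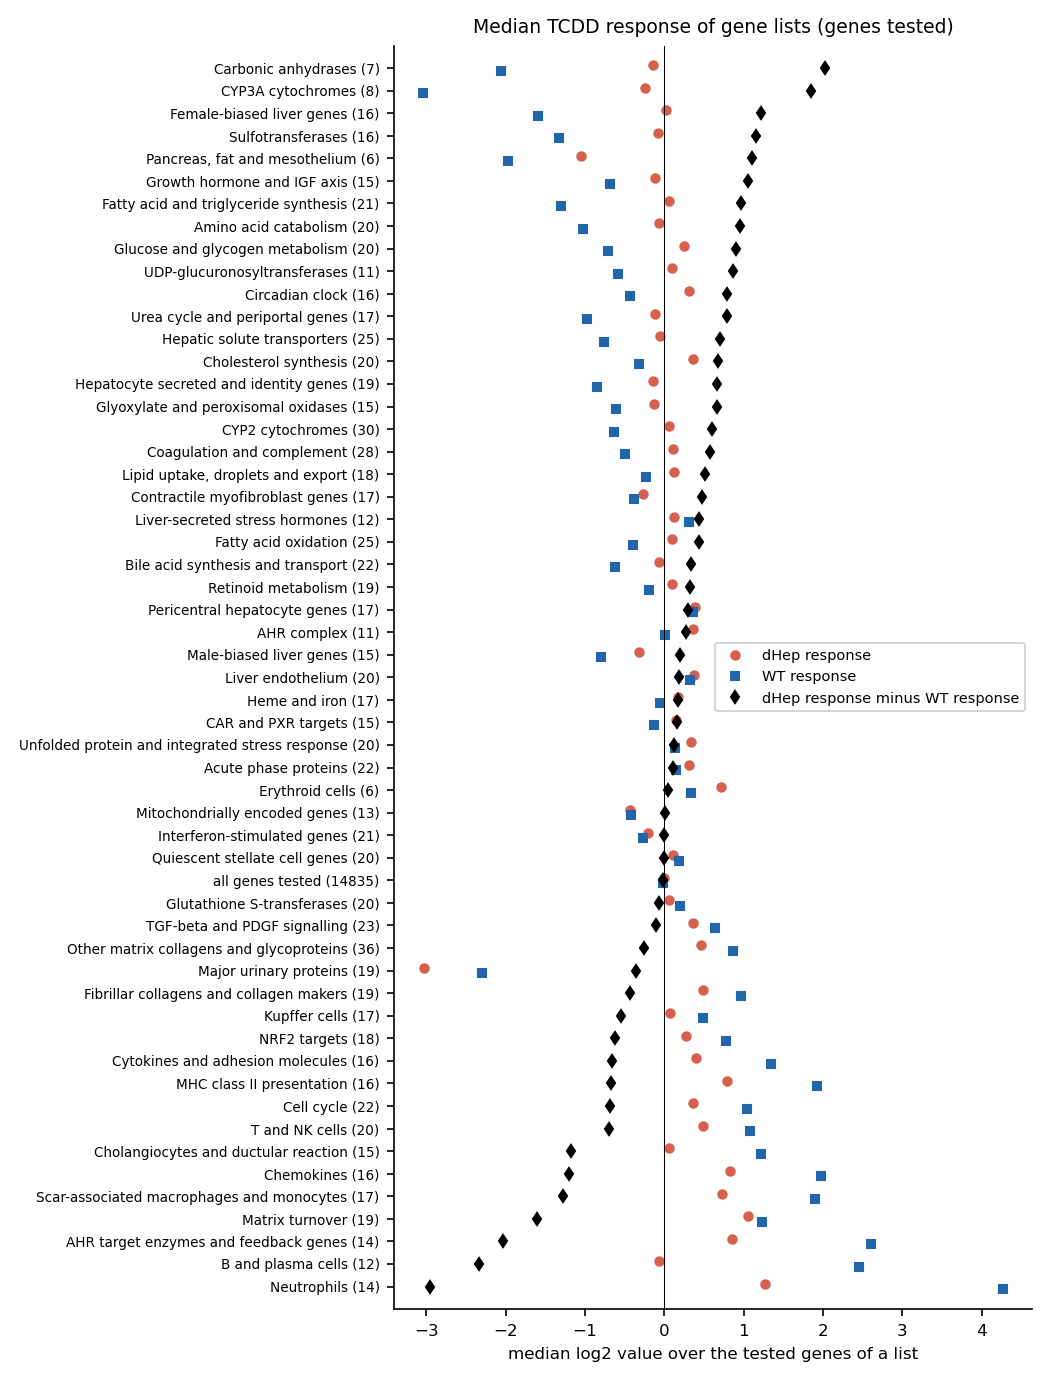
Median log2 response to TCDD in dHep and in WT for each gene list with at least 6 tested genes. Neutrophil genes (1.27 in dHep, 4.27 in WT) and AHR targets (0.85 and 2.61) lie far up in WT, and carbonic anhydrases (-0.15 and -2.06) far down.

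The dHSC libraries show the response with AHR in hepatocytes but deleted in stellate cells. TCDD called 379 genes there (2.55%; 1.71% up and 0.843% down). The difference of responses between dHep and dHSC, which shares the 6 dHep libraries with the comparison above, was called for 64 genes (0.431%), 23 higher (0.155%) and 41 lower (0.276%). Values are given side by side for that reason. The dHSC libraries that stood apart, vehicle replicate 17 and TCDD replicate 18, enter that difference, and this comparison was not run without them. In TCDD replicate 18, 28.4% of counts were mitochondrial, against 4.52% to 9.96% in the 12 WT and dHep libraries. Among the 127 genes, the median response in dHep was -0.05 for the 52 and -0.20 for the 75, against -2.81 and 2.82 in dHSC, and -3.59 and 3.64 in WT. The 127 were picked for a difference between the dHep and WT responses, which sets those medians apart, and the dHSC response had no part in that contrast. So these medians cannot rank the dHSC response against that of WT.

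In dHSC livers Cyp1a1 had 5486, 5576 and 2449 CPM with TCDD and 16.7, 3.24 and 15.1 CPM with vehicle, and the dHep minus dHSC difference was -6.33 ± 1.02 (SE; adjusted p = 0.00899), beside a difference from WT of -6.44. Hao1 had 0.0738, 0.346 and 0.0716 CPM with TCDD and 122, 154 and 107 CPM with vehicle in dHSC, and the dHep minus dHSC difference was 9.22 ± 0.91 (SE; adjusted p = 9.24e-05). Nptx1 had 229, 260.4 and 46.1 CPM with TCDD and 0.362, 0.147 and 0.141 CPM with vehicle in dHSC, with a difference of -9.54 ± 0.97 (SE; adjusted p = 9.78e-05). Marveld3 had 22.4, 24.3 and 28.4 CPM with TCDD and 1.09, 1.18 and 1.05 CPM with vehicle in dHSC, with a difference of -4.72 ± 0.47 (SE; adjusted p = 9.24e-05). In these 4 genes dHSC livers given TCDD lay on the side of WT livers given TCDD. Cd14 had 4.94, 3.61 and 5.87 CPM with TCDD and 4.35, 5.75 and 5.28 CPM with vehicle in dHSC, and there the dHep minus dHSC difference was 0.47 ± 0.47 (SE; adjusted p = 0.821). Gsta1 had 9.44, 12.5 and 13.4 CPM with TCDD and 4.03, 3.98 and 4.22 CPM with vehicle in dHSC, with a difference of -0.35 ± 0.66 (SE; adjusted p = 0.909). For Cd14 and Gsta1 the dHSC response was -0.09 and 1.53, beside 2.67 and 4.38 in WT.

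**Figure D5:**
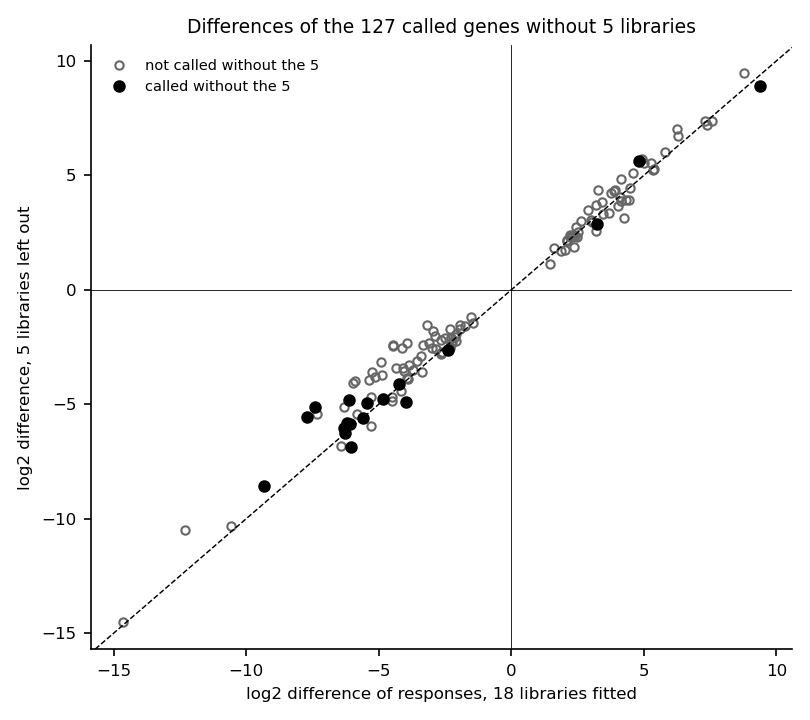
Difference of responses for the 127 called genes with all 18 libraries and without the 5 that stood apart, on the log2 scale. The 18 genes still called are marked, and values keep their sign while the dHep vehicle group is down to 1 library.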

How the data were processed

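Liver RNA of 18 mice was sequenced after poly-T selection, and input was 10 mg of tissue whose RNA integrity number exceeded 6.8, per the labels' protocols. The deposited files hold raw counts per gene, 1 library each, for 55536 Ensembl identifiers. The submitters' processing notes name HISAT2 2.1.0 and HTSeq 0.11.3, beside FastQC 0.11.9 and DESeq2 1.22.2, and the build GRCm38. Their counting settings are not given in the sources used here. All identifiers matched GENCODE M21, which gave names and GRCm38 positions. Of 1290 protein-coding genes lying wholly inside another gene, 1290 had no count, against 25.3% of 11798 genes clear of others, so overlapped genes lost reads.

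These counts were fitted in edgeR 4.0.16 (R 4.3.3): filterByExpr defaults, TMM scaling, a mean per group over all 18 libraries, quasi-likelihood tests and Benjamini-Hochberg adjustment over the 14835 genes kept, with calls at an adjusted p under 0.05. The common dispersion was 0.2. Each SE is the size of a fitted log2 value divided by the square root of its test's F statistic. It is not an error reported by the fit, and it shares the log2 value's dependence on the prior count. The script was tested on simulated data. Alternatives were RLE factors, other filters, 12 libraries, at least 2-fold, a covariate, a block, DESeq2 1.42.0, and libraries left out singly or as 5. Ratios with 1 to 3 counts in a group carry 95% exact Poisson intervals, and a group without counts is set to 3 counts over the group. Both cover counting error only. The labels do not say whether mice shared a litter or cage.

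Genes are named if called, averaging 1 CPM or more, and without a predicted-gene name: the 20 highest, the 20 lowest and called members of 55 gene lists (992 genes, 117 not tested), with other list members as examples. The value of 1 AHR target list member is not reported here. The comparison, lists and alternatives were chosen with earlier results of these data known. Picking the largest folds inflates them.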

Additional observations from a re-analysis of the deposited data

Results flagged for a closer look

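The difference between the genotypes' responses to TCDD, dHep minus WT, was itself tested and passed for 127 genes. The response was higher in dHep for 52 and lower for 75. Groups of 3 libraries are too small for a test of single outlying libraries. The values for the genes named above are log2 differences of the responses from edgeR's quasi-likelihood fit.

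Of genes lower in dHep, AHR's own enzymes and feedback genes gave -6.44 for Cyp1a1, -6.33 for Cyp1b1, -6.28 for Ahrr, -3.54 for Cyp1a2, -3.20 for Gsta1, -2.67 for Tiparp and -2.39 for Nqo1. Secreted, matrix and signalling genes gave -14.65 for Pnliprp1, -12.32 for Col9a2, -9.32 for Nptx1, -7.35 for Col4a3, -6.20 for Ism2, -6.04 for Insl6, -5.28 for Fgf21 and -4.35 for Cxcl1. Membrane, cytoskeletal, scaffold and other genes gave -7.73 for Gipc2, -7.41 for Pdzrn3, -6.33 for Fabp12, -6.12 for St14, -6.10 for Pls1, -5.89 for Ap1m2, -5.61 for Fam83a, -5.46 for Trpv4, -5.37 for Nipal2 and -2.66 for Slc22a3. The pseudogene Mup-ps10 gave -5.97.

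Of genes higher in dHep, the values were 9.39 for Hao1, 8.78 for Sult3a2, 7.56 for Sult3a1, 6.28 for Sult2a7, 3.87 for Sult2a8 and 2.39 for Sult1a1. The cytochromes, carbonic anhydrases and other enzymes gave 5.38 for Cyp2c69, 4.83 for Cyp2g1, 2.33 for Cyp17a1, 4.58 for Car3, 4.15 for Car1, 3.06 for Car14, 2.03 for Car8, 2.28 for Fmo2, 2.53 for Fads1, 4.33 for Acsm2, 4.02 for St6galnac6 and 4.93 for Ube2u. The remaining genes gave 7.40 for Irx1, 5.81 for Dsg1c, 5.34 for Serpina1e, 5.29 for Mmd2, 5.03 for Susd4, 4.49 for Nxph1, 4.43 for Mup3, 4.24 for Ntrk2, 4.16 for Serpina7 and 2.09 for Slc16a10.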

How the results depend on the processing

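No log2 difference among the 127 called genes changed sign under any setting run. The interaction count of 127 was 48 when a change of at least 2-fold was required, 19 without the 5 libraries that stood apart, 227 with each library's noncoding share (log2 scale) as a covariate, 288 by DESeq2 and 51 to 130 with 1 library left out. The 52 genes higher in dHep were 21, 3, 93, 105 and 21 to 51 in the same order, and the 75 lower 27, 16, 134, 183 and 29 to 79. The dHep response of 10 genes was 0 for at least 2-fold, 0 without the 5 libraries, 41 with the covariate, 84 by DESeq2, 19 with no filter on low counts, 6 with only the 12 WT and dHep libraries fitted and 0 to 17 with 1 left out. The WT response of 798 was 269 for at least 2-fold, 1584 without the 5, 1926 with the covariate, 1343 by DESeq2 and 445 to 921 with 1 left out. TCDD livers of dHep against WT gave 108 for at least 2-fold, 720 with the covariate, 570 by DESeq2 and 159 to 318 with 1 left out, against 288. Vehicle livers gave 3 by DESeq2 against 0. The cause of these shifts was not tested. RLE size factors, a filter of at least 1 CPM in 3 libraries and, for the interaction, no filter (134) and the 12 libraries alone (108) stayed within 1.5 times. With the 12 alone, 32 of the 127 calls ended, among them Cyp1a2 (adjusted p = 0.0765), Gsta1 (0.0891), Cxcl1 (0.0532), Cd14 (0.0691), Slc22a3 (0.0765), Spint1 (0.0676), Lnx1 (0.0658), Gm13775 (0.0671), Fmo2 (0.0894), Acsm2 (0.0602), Ube2u (0.103) and Gm8221 (0.108). No paired analysis was possible because no mouse number is shared between groups. A block of 3 sets, each of 6 mice numbered in a row, gave 144, with 7 of the 127 calls ended, Spint1 (0.0786) among them. With 3 mice a group and counts near 0 in some groups, depth limits the folds of genes such as Pnliprp1 and Irx1.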
